A study of Homo sapiens with 12 samples.

Results

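The 12 RNA sequencing samples of the series carry a replicate number from 1 to 4 behind the name of their line, and the genes that varied with this number, whatever the line, are described here. All 12 of the 12 samples entered, 3 samples to each number, 1 from each of 3 lines. The number was taken from the sample titles and was treated as an unordered factor with 4 levels beside the line. What a number stands for (a day of culture, a passage, a round of extraction or of library preparation) is not given in the sources used here, so a number is called only that.

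DU145 is an established cell line of human prostate cancer, first grown from a brain metastasis. DU145KO cells carry a Crispr/Cas9 edit of ITGA2, the gene of the α2 subunit of the collagen receptor α2β1 integrin, and were sorted by flow cytometry for cells without surface α2, so that they are a sorted population. DU145KO+α2 cells are DU145KO cells stably transfected with an α2 cDNA, and DU145KO+vector cells were stably transfected with the empty plasmid. Both transfected lines were kept under geneticin, DU145KO was not, and all 3 lines carry the knockout. RNA was taken from spheroids of 8000 cells grown for 72 hours in serum-free medium.

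A spheroid is a ball of cells that grows without attachment to plastic. Cells in its outer layers have ready access to nutrients and oxygen and can divide, whereas cells deeper inside may meet low oxygen, low glucose or low amino acids. Cells answer such conditions with well known transcription programmes. Dividing cells switch on genes of DNA replication and then of mitosis, a shortage of amino acids acts through the factor ATF4, low oxygen through hypoxia inducible factors, low sterol through SREBP2, and misfolded protein through heat shock factor or the unfolded protein response. A sudden stimulus raises the immediate early genes within minutes.

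Each sample held between 13948734 and 19988111 counts, and 14732 of the 26485 genes of the table had enough counts to be tested. Total count did not separate the numbers (exact permutation test within the lines, p = 0.781). Of 7 sample measures tested in this way, 3 differed between the numbers. The deviation of log2 CPM (counts relative to the scaled library size, TMM) from the line mean was fitted on GC content and gene length together. Its slope on length had a mean of −0.0416 ± 0.00557 per doubling of length at number 1, 0.0251 ± 0.00184 at number 2, 0.0213 ± 0.0125 at number 3 and −0.00483 ± 0.0109 at number 4 (SD, n = 3 each, exact permutation p = 0.00521, adjusted over the 7 measures 0.0122). Relative to the mean of their own line, shorter genes thus had more counts in the 3 number 1 samples than in any other sample. The 10 most abundant genes held 4.40% ± 0.0862 of the counts at number 1, 3.95% ± 0.0981 at number 2, 4.10% ± 0.170 at number 3 and 3.70% ± 0.109 at number 4 (SD, n = 3, p = 0.00521 by the same exact test, adjusted 0.0122). Replication-dependent histone genes held 0.0640% ± 0.00432, 0.0553% ± 0.00327, 0.04997% ± 0.00474 and 0.0610% ± 0.00128 (SD, n = 3, p = 0.00347 by the same exact test, adjusted 0.0122). The libraries were made with an mRNA kit, and how fully it captures histone mRNA was not tested. The smallest p that the arrangements within the lines allow is 0.00174. Keratins and other epithelial markers summed to between 1289 and 2256 CPM in every sample, while KLK2, KLK3 and FOLH1, markers of luminal prostate cells, had no count in any sample.

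**Figure D1:**
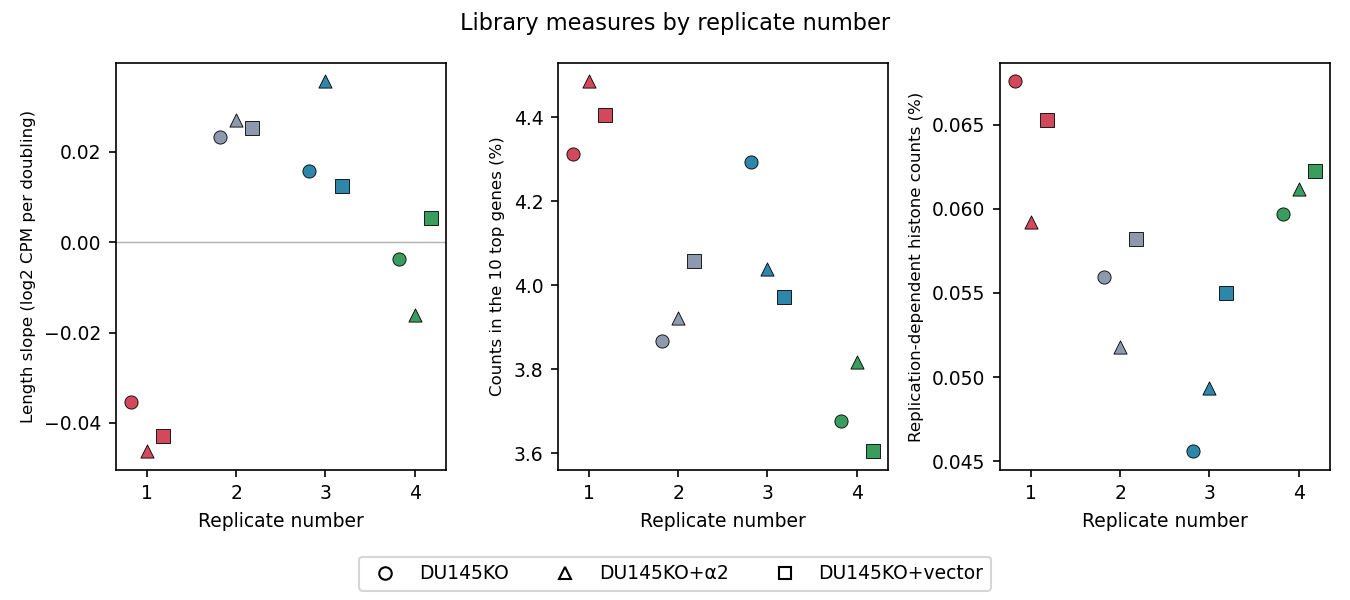
Each panel plots 1 measure of each sample against its replicate number (1 symbol per sample, shape for the line). The measures are the length slope, the percentage of counts in the 10 most abundant genes and the percentage in replication-dependent histone genes. The length slope is that of the deviation of log2 CPM from the line mean, per doubling of gene length, fitted together with GC content. The 3 number 1 samples have the lowest length slopes, with a mean of −0.0416, and number 3 has the lowest mean histone share, 0.04997%.

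Gene expression differed between the replicate numbers about as widely as it differed between the lines. With edgeR's quasi-likelihood F-test, 5259 of 14732 genes (35.7%) varied with the number and 4995 (33.9%) varied with the line at an adjusted p below 0.05, and 2207 genes passed both tests. Most of the differences between numbers were small, since the highest and the lowest number differed by more than 1.5-fold in 1218 of the 5259 genes. The number took a median of 39.1% of a gene's sum of squares over the 12 samples, the line took 27.8% and the remainder was 22.5%. Number has 3 degrees of freedom and line 2, which raises the share of the number. The number count was 2078 without the DU145KO+vector line, and the line count was 1948 in a fit with no replicate block.

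Deviations were shared between the lines. After removal of the line means, samples of different lines that carried the same number correlated across genes with r between 0.458 and 0.554 for number 1, 0.135 and 0.283 for number 2, 0.340 and 0.455 for number 3, and 0.379 and 0.504 for number 4. The 36 pairs with different numbers ranged from −0.290 to 0.149. These values are across genes, which are not independent replicates, and removing the means pushes unlike pairs below 0. On the first principal component of these deviations (25.3% of the variance) the number 1 samples lay apart from the other 9, and on the second (24.5%) number 3 lay opposite number 4. The third component (11.9%) held the number 2 samples at its negative end.

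**Figure D2:**
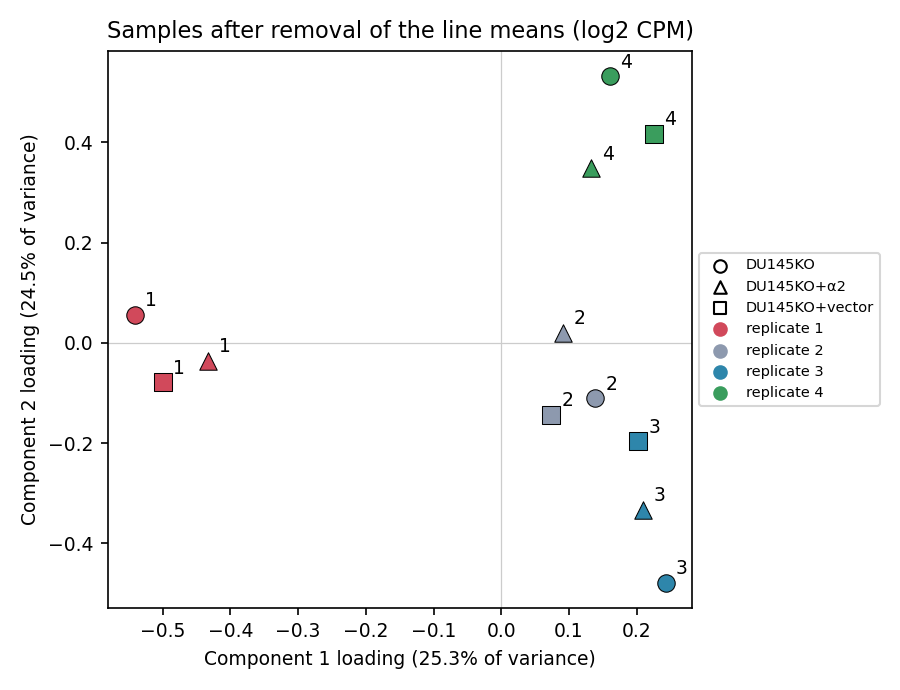
The 12 samples are plotted by their loadings on the first 2 principal components of log2 CPM after removal of the line means, with color for the replicate number and shape for the line. Component 1 (25.3% of variance) sets the 3 number 1 samples apart, and component 2 (24.5%) sets number 3 against number 4, with the DU145KO samples at both ends.

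Each number was then compared with the mean of the other 3 in the same model. Number 1 stood out most, with 1620 genes higher (11.0%) and 1762 lower (12%). Number 2 had 474 genes higher (3.22%) and 455 lower (3.09%), number 3 had 1208 higher (8.20%) and 849 lower (5.76%), and number 4 had 1087 higher (7.38%) and 952 lower (6.46%). Past 1.5-fold there were 387 genes at number 1, 40 at number 2, 271 at number 3 and 352 at number 4. These 4 comparisons share samples, and a gene that is high at one number tends to be called low at another. With scaling to library size alone, number 1 had 1144 genes higher and 2421 lower and number 4 had 1477 higher and 674 lower. With GC content and length fitted, number 2 had 438 higher and 229 lower. In what follows, the values of a number are given in the order DU145KO, DU145KO+α2 and DU145KO+vector. Fold changes (log2, ± their standard error) compare a number with the mean of the other 3 numbers. Adjusted p-values are from edgeR's quasi-likelihood test over all genes tested. Most genes were named for their differences between numbers or after their values were seen. A lack of overlap between numbers in a named gene is thus a description and not separate support.

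**Figure D3:**
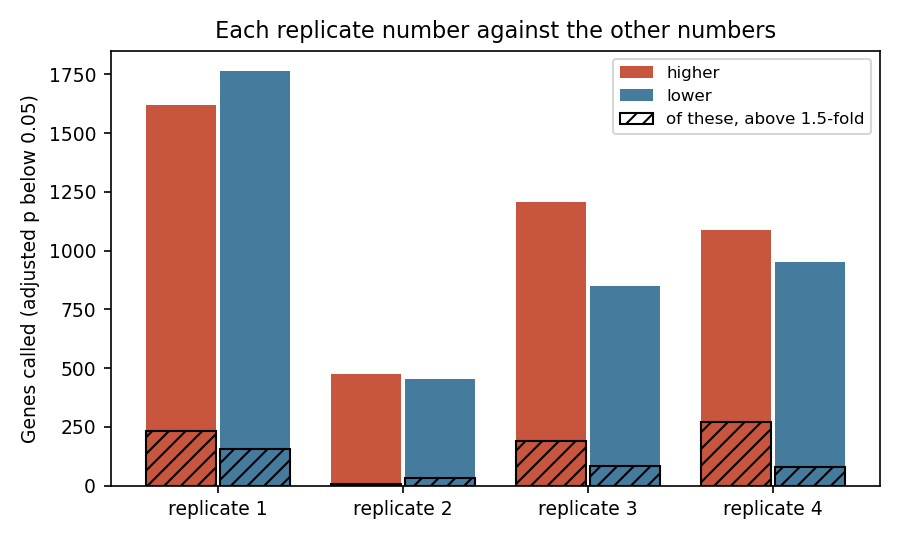
Bars count the genes called higher or lower at each replicate number against the mean of the other numbers (edgeR's quasi-likelihood test, adjusted p below 0.05), and hatched parts are those that also passed 1.5-fold. Number 1 has 1620 higher and 1762 lower, and number 2 has the fewest, 474 and 455.

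**Figure D4:**
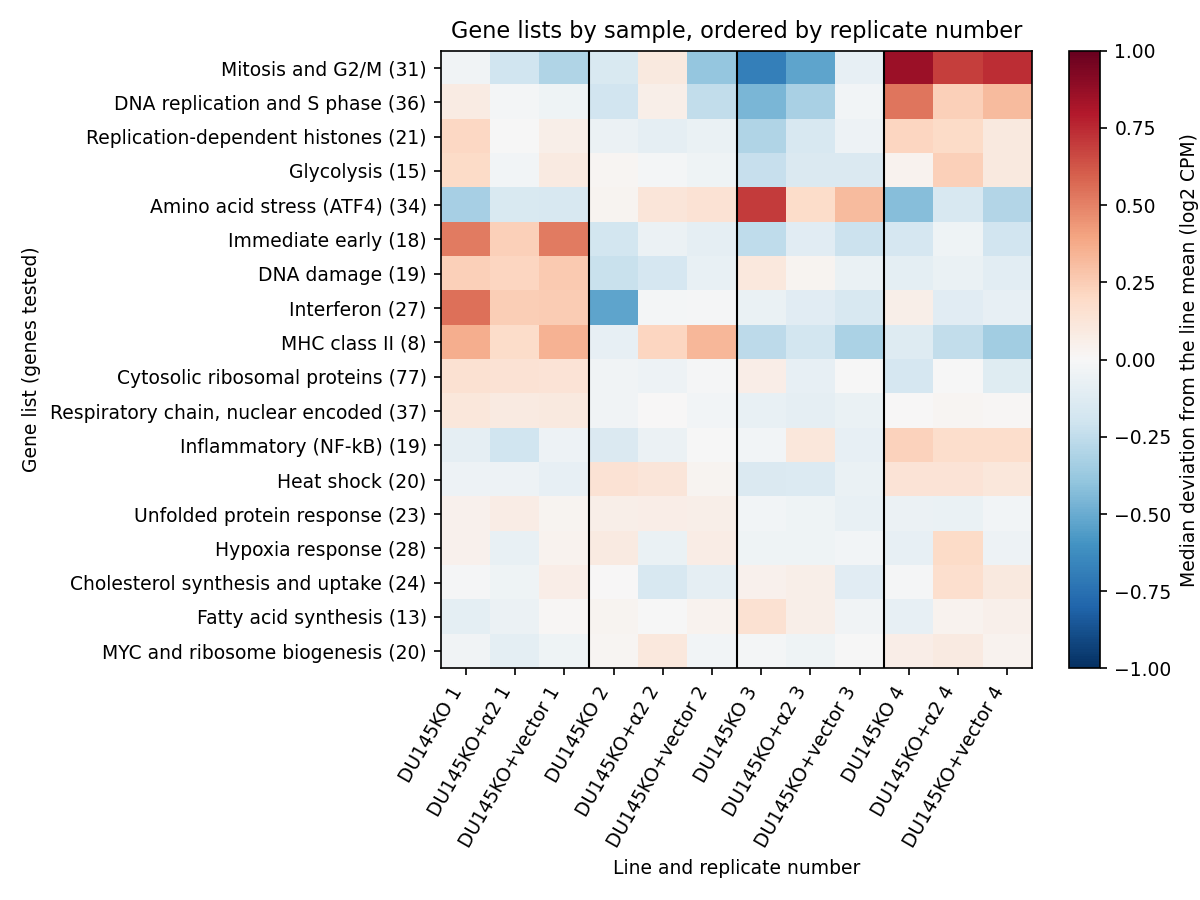
For 18 gene lists (rows, with the genes tested in parentheses) the color gives the median deviation of the members from their line mean in log2 CPM, for each of the 12 samples ordered by replicate number. Immediate early, DNA damage and interferon genes are high in the 3 number 1 samples, amino acid stress genes in the number 3 samples and mitosis genes in the number 4 samples, whereas hypoxia and cholesterol genes stay pale.

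Immediate early genes were raised at number 1. Of 18 tested, 12 were higher and 2 lower at number 1, against 11.0% and 12% of all genes. The median log2 fold change was 0.59 beside 0.00106 for all genes. The lower ones were FOSL1 (−0.28 ± 0.08, adjusted p = 0.0164) and KLF6 (−0.41 ± 0.06, adjusted p = 7.1e-05), both named after their values were seen. FOS, a subunit of the transcription factor AP-1, was counted at 219.8, 132 and 169 CPM at number 1, 24.6, 33.8 and 23.1 CPM at number 2, 15.8, 27.2 and 18.5 CPM at number 3 and 31.1, 31.7 and 26.9 CPM at number 4 (log2 fold change 2.77 ± 0.19, adjusted p = 0.000206). The 3 number 1 values lay far above the other 9. EGR1, a zinc finger transcription factor of the same early response, was counted at 470.4, 289.5 and 309 CPM at number 1 and at 73.0 to 144 CPM in the other 9 samples (log2 fold change 1.78 ± 0.13, adjusted p = 0.000196). JUNB, another AP-1 subunit, was counted at 186, 159.7 and 172 CPM against 61.4 to 95.2 CPM (log2 fold change 1.24 ± 0.08, adjusted p = 2.93e-06). None of the number 1 values of these genes overlapped the others. In JUNB 14.2% of the exon bases overlap HOOK2 on the opposite strand.

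Further early genes went the same way. IER2 stood at 137, 117 and 126 CPM at number 1 and at 46.5 to 74.0 CPM elsewhere (log2 fold change 1.11 ± 0.07, adjusted p = 8.52e-08). DUSP1, the phosphatase that switches MAP kinases off, stood at 46.3, 30.2 and 34.4 CPM against 17.8 to 23.9 CPM (log2 fold change 0.87 ± 0.09, adjusted p = 4.1e-06). ZFP36, which speeds the decay of cytokine mRNAs, stood at 181, 148 and 143 CPM against 83.6 to 122 CPM (log2 fold change 0.61 ± 0.06, adjusted p = 6.06e-06). SOCS3, an inhibitor of cytokine signalling that was added to the genes named after its values were seen, stood at 57.1, 51.4 and 50.3 CPM against 17.1 to 32.7 CPM (log2 fold change 1.24 ± 0.12, adjusted p = 0.000142). No number 1 sample overlapped the other samples in any of these 4 genes. FOSB was lower in level, at 16.4, 3.85 and 5.60 CPM at number 1, and its number 1 value was the highest within each line (log2 fold change 2.14 ± 0.30, adjusted p = 0.00130), but the call was lost without the DU145KO+vector line (adjusted p = 0.0647).

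**Figure D5:**
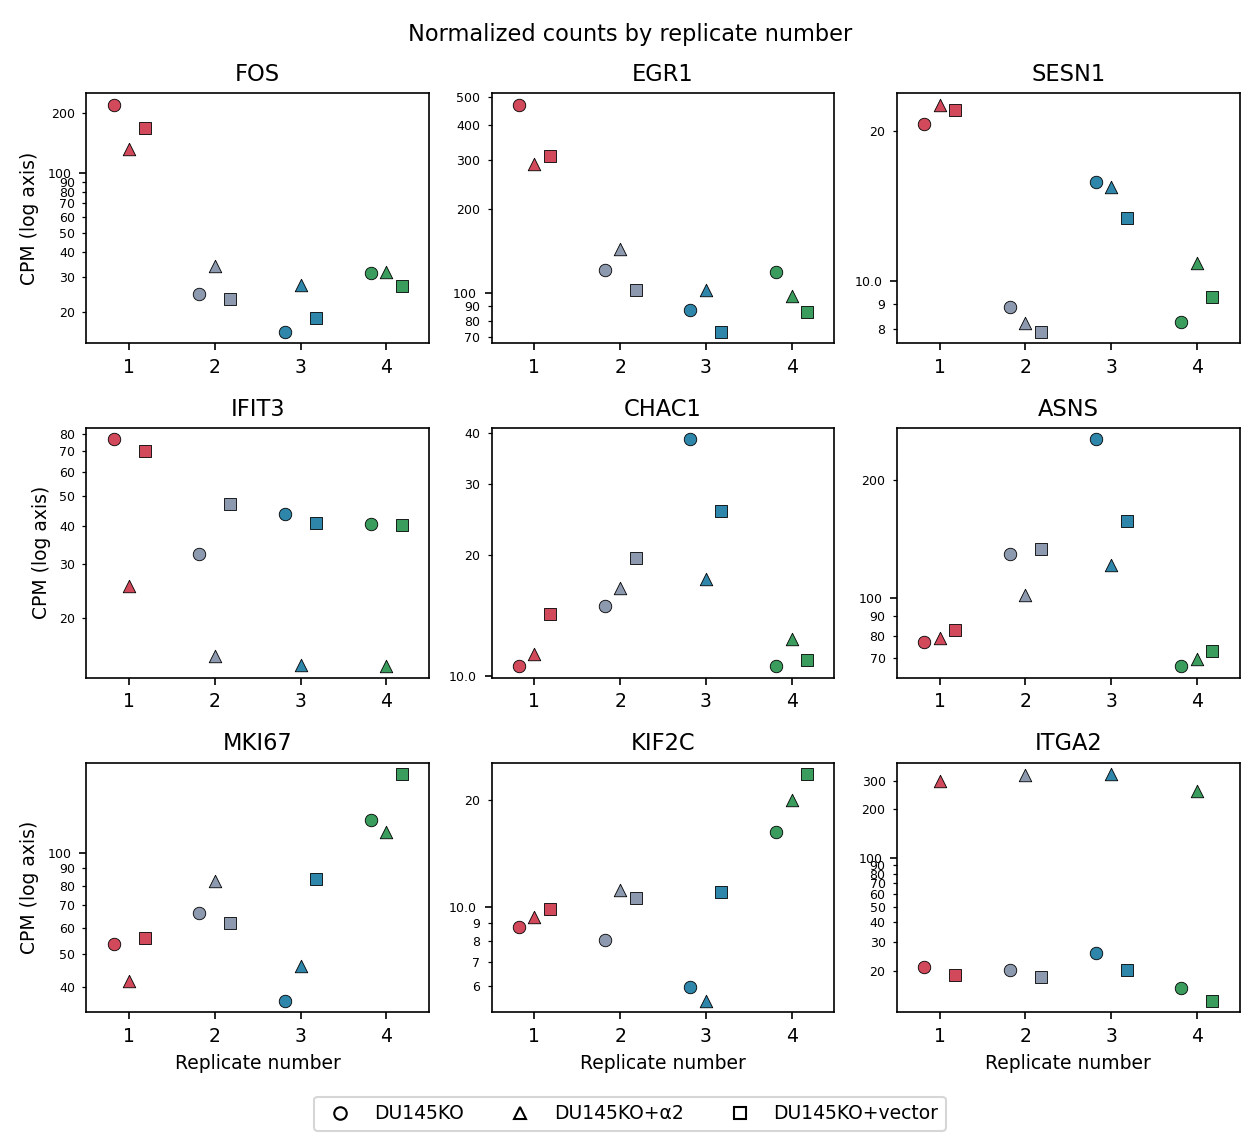
Normalized counts (CPM, log axis) of 9 genes are plotted by replicate number, with 1 symbol per sample and the shape giving the line. FOS, EGR1 and SESN1 are highest in all 3 number 1 samples, CHAC1 and ASNS are highest at number 3 within each line, MKI67 and KIF2C are highest in all 3 number 4 samples, and ITGA2 separates the lines (259 to 332 CPM in DU145KO+α2).

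Genes known from the response to DNA damage followed, with 11 of 19 higher and 1 lower at number 1 (median log2 fold change 0.30). Among all genes 11.0% were higher and 12% lower there. SESN1, a sestrin that restrains mTORC1, was counted at 20.7, 22.6 and 22.1 CPM at number 1, 8.86, 8.25 and 7.90 CPM at number 2, 15.8, 15.4 and 13.4 CPM at number 3 and 8.26, 10.9 and 9.30 CPM at number 4 (log2 fold change 1.05 ± 0.08, adjusted p = 1.34e-07). The number explained 96.4% of its variation and the line 0.973%. AEN, an exonuclease that acts in apoptosis, went the same way, with 60.5, 54.2 and 63.4 CPM at number 1, 21.6, 22.9 and 27.3 CPM at number 2, 50.3, 51.9 and 38.4 CPM at number 3 and 24.8, 23.6 and 25.3 CPM at number 4 (log2 fold change 0.98 ± 0.09, adjusted p = 6.17e-06). In both genes numbers 1 and 3 were high and numbers 2 and 4 low, with no overlap between these pairs of numbers.

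MDM2, a ubiquitin ligase, was counted at 94.4, 95.3 and 90.3 CPM at number 1 and 84.5, 92.6 and 68.7 CPM at number 3, against 61.4 to 66.3 CPM at numbers 2 and 4 (log2 fold change 0.43 ± 0.06, adjusted p = 2.21e-05). PHLDA3, which inhibits AKT, had a log2 fold change of 0.70 at number 1 (adjusted p = 3.55e-05). Of the G1 cyclins and cell cycle inhibitors, CDKN1A, the inhibitor p21, was counted at 48.6, 47.6 and 47.1 CPM at number 1 and 24.6, 27.2 and 22.8 CPM at number 2 (log2 fold change 0.63 ± 0.07, adjusted p = 4.22e-06), and number 2 was itself called lower (−0.63, adjusted p = 0.000327). BTG2, which restrains proliferation, was counted at 51.1, 47.1 and 40.4 CPM at number 1 and at 23.2 to 36.4 CPM elsewhere (log2 fold change 0.59 ± 0.07, adjusted p = 1.07e-05). CCND1, cyclin D1, was lower at number 1, at 100.5, 83.3 and 91.2 CPM (log2 fold change −0.31 ± 0.05, adjusted p = 0.000321). At number 2, 6 of the 19 DNA damage genes were lower and none higher, and at number 4, 7 were lower and 3 higher, with medians of −0.23 and −0.15. Among all genes 3.09% were lower at number 2, and 6.46% were lower and 7.38% higher at number 4. The 6 at number 2 became 3 when any 1 of the 3 number 2 samples was left out, and the 7 at number 4 became 4 without DU145KO replicate 4.

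GADD45B, a stress-induced gene of the same list, moved against it. It was counted at 32.0, 39.4 and 39.6 CPM at number 1 and at 50.2 to 145 CPM in the other samples (log2 fold change −1.26 ± 0.28, adjusted p = 0.0223), a gene named after its values were seen. Every number 1 sample was below the other 9, but the call was lost when any 1 of the number 1 samples was left out (adjusted p between 0.0752 and 0.113).

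Interferon stimulated genes were raised at number 1 on top of large differences between the lines. All 27 tested varied with the line, which took a median of 77.2% of their variation against 14.3% for the number. At number 1, 17 of the 27 were higher and none lower (median log2 fold change 0.58), beside 11.0% and 12% of all genes. IFIT3, an antiviral protein, was counted at 76.6, 25.3 and 70.05 CPM at number 1, 32.4, 15.0 and 47.2 CPM at number 2, 43.6, 14.0 and 41.0 CPM at number 3 and 40.5, 13.9 and 40.3 CPM at number 4 (log2 fold change 0.84 ± 0.08, adjusted p = 3.29e-06). The number 1 sample was the highest of its line in each line, and the DU145KO+α2 samples lay below the other lines at every number. IFIT2 (0.58, adjusted p = 0.000233), SAMD9 (0.73, adjusted p = 0.000174) and PARP9 (0.40, adjusted p = 0.000295) were likewise highest at number 1 within each line. Without DU145KO replicate 1, 9 of the 27 genes stayed called, with a median of 0.43.

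TNFSF10, the death ligand TRAIL, was counted at 162, 222 and 101 CPM at number 1 and at 33.6 to 128 CPM elsewhere (log2 fold change 1.13 ± 0.18, adjusted p = 0.00591, named after its values were seen), a call lost without the DU145KO+vector line (adjusted p = 0.127). Of 8 MHC class II genes, 4 were higher at number 1 (median 0.43) and 4 lower at number 3 (median −0.36), against 11.0% and 5.76% of all genes. None was called at number 2, where the median was 0.23. By line the medians were −0.11, 0.29 and 0.44 at number 2 and 0.48, 0.24 and 0.46 at number 1. In DU145KO+α2 and DU145KO+vector, number 2 was thus about as high as number 1. HLA-DRA, the α chain of HLA-DR, was counted at 23.4, 2.24 and 2.72 CPM at number 1 and at 12.7, 1.004 and 1.15 CPM at number 3 (log2 fold change 0.85 ± 0.14, adjusted p = 0.000239), while the line took 91.1% of its variation. HLA-DMA, which loads peptides, stood at 49.2, 32.9 and 29.3 CPM at number 1 (log2 fold change 0.46 ± 0.07, adjusted p = 0.000126) and was the highest within each line. The 4 genes at number 3 became 2 when any 1 of the number 3 samples was left out.

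Chaperone genes were lower at numbers 1 and 3 and higher at numbers 2 and 4. Of 20 heat shock genes, 7 were lower and 1 higher at number 1, and 8 were higher at number 2. At number 3, 6 were lower, and at number 4, 8 were higher. Of all genes, 12% were lower and 11.0% higher at number 1, and 3.22% were higher at number 2. The share of all genes was 5.76% lower at number 3 and 7.38% higher at number 4. The list medians were −0.08, 0.17, −0.14 and 0.12 at numbers 1, 2, 3 and 4 on the log2 scale. HSPA8, the constitutive HSP70, was counted at 724, 636 and 663 CPM at number 1, 1103, 987 and 977 CPM at number 2, 798, 686 and 944 CPM at number 3 and 1227, 997 and 1095 CPM at number 4 (log2 fold change −0.52 ± 0.07, adjusted p = 2.03e-05). Numbers 2 and 4 were high and numbers 1 and 3 low, with no overlap. CHORDC1, a partner of HSP90, was counted at 22.4, 24.8 and 25.2 CPM at number 1 and 43.1, 40.2 and 43.3 CPM at number 4 (log2 fold change −0.58 ± 0.07, adjusted p = 1.58e-05). HSPH1, a nucleotide exchange factor of HSP70, fell in the same way (log2 fold change −0.39 ± 0.06, adjusted p = 0.000206). HSPA1B had a log2 fold change of −0.56 at number 1 and 0.46 at number 2, and it is nearly identical to HSPA1A, so the division of reads between these genes is uncertain. The 8 calls at number 2 became 3 to 4 without any 1 number 2 sample, and the 6 at number 3 became 0 without DU145KO replicate 3, whereas the counts at numbers 1 and 4 stayed within 1.5 times. The heat shock element GAANNTTC was in 7 of 19 of these promoters (36.8%), HSPA8 and CHORDC1 among them, and in 5.85% of all promoters.

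NF-kB genes were split at number 1, with 3 higher and 5 lower of 19, and 8 were higher and 1 lower at number 4 (median 0.27). Among all genes 11.0% were higher and 12% lower at number 1, and 7.38% higher and 6.46% lower at number 4. TNFAIP3, the feedback inhibitor A20, was counted at 37.97, 40.2 and 37.7 CPM at number 1, 48.6, 54.1 and 56.9 CPM at number 2, 59.4, 60.9 and 48.9 CPM at number 3 and 65.8, 66.1 and 69.1 CPM at number 4 (log2 fold change −0.60 ± 0.07, adjusted p = 5.81e-06), and number 4 was higher (0.46, adjusted p = 7.79e-05). NFKB2, the precursor of p52, had 73.2, 65.3 and 70.9 CPM at number 1 and 127, 121 and 126 CPM at number 4 (log2 fold change −0.63 ± 0.09, adjusted p = 0.000447). In both genes number 1 was the lowest and number 4 the highest without overlap. ICAM1, an adhesion molecule of the same list, went the other way at number 1 (log2 fold change 0.24 ± 0.05, adjusted p = 0.00139). The 8 genes at number 4 became 4 without DU145KO replicate 4 or DU145KO+vector replicate 4.

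Genes of the protein synthesis machinery moved at number 1 by small amounts and in different directions. Of 77 cytosolic ribosomal protein genes, 51 were higher and none lower at number 1 (median log2 fold change 0.19), and 19 were lower at number 4 (median −0.13). Among all genes 11.0% were higher at number 1 and 6.46% lower at number 4. RPL34 stood at 297, 389 and 386 CPM at number 1 and 218, 309.6 and 263 CPM at number 4 (log2 fold change 0.40 ± 0.06, adjusted p = 5.68e-05). These genes are short, and number 1 is where shorter genes had relatively more counts. Once GC content and length of the genes were fitted within each sample, 28 of the 77 stayed called and the median was 0.11, and the count was 16 without the DU145KO+vector line. Ribosomal protein genes have many processed pseudogenes, which could take part of their reads. Of 37 nuclear genes of the respiratory chain, 14 were higher at number 1 (median 0.11), against 11.0% of all genes. The count was 8 after that correction and became 7 without DU145KO+vector replicate 1. Of 20 genes of MYC and ribosome biogenesis, 8 were lower and 2 higher at number 1 (median −0.07), against 12% and 11.0% of all genes. The lower ones included UTP20, a factor of small subunit assembly (55.3, 58.4 and 64.8 CPM against 70.03 to 85.4 CPM, log2 fold change −0.42 ± 0.06, adjusted p = 4.06e-05). POLR1B, a subunit of RNA polymerase I, stood at 35.7, 28.5 and 33.8 CPM against 37.0 to 55.2 CPM (log2 fold change −0.38 ± 0.07, adjusted p = 0.000370). The 8 genes became 3 without DU145KO replicate 1 and 4 without either of the other number 1 samples.

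Among called genes that averaged 1 or more in log2 CPM and whose number 1 sample was the lowest of each line, the 3 with the largest drop were low in level. ACHE, acetylcholinesterase, was counted at 1.06, 2.92 and 1.11 CPM at number 1 and at 2.47 to 8.08 CPM elsewhere (log2 fold change −1.59 ± 0.31, adjusted p = 0.00377), a call lost without the DU145KO line (adjusted p = 0.0644). NGFR, the neurotrophin receptor p75, was counted at 1.19, 2.11 and 1.94 CPM against 2.53 to 6.62 CPM (log2 fold change −1.41 ± 0.25, adjusted p = 0.000948). BAMBI, a decoy receptor of TGF-β and BMP signals, was counted at 1.06, 1.18 and 1.44 CPM at number 1 and 5.44, 3.44 and 5.72 CPM at number 4 (log2 fold change −1.31 ± 0.24, adjusted p = 0.000750). For NGFR and BAMBI the number 1 samples were below the other 9. HIST1H1C, a linker histone, was higher at number 1, at 211, 183 and 197 CPM against 119 to 152 CPM (log2 fold change 0.58 ± 0.06, adjusted p = 1.7e-06). Of 74 small noncoding RNAs tested, which have no poly(A) tail, 12 were higher and 2 lower at number 1, against 11.0% and 12% of all genes.

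Number 2 had the fewest differences, and the genes with the largest fold under the same limits were low in level or lost their call when 1 sample was left out. BSN, a scaffold protein of synapses, was counted at 2.81, 3.20 and 4.24 CPM at number 2 and at 0.891 to 2.77 CPM elsewhere (log2 fold change 0.80 ± 0.19, adjusted p = 0.0200), with an adjusted p of 0.146 without DU145KO+α2 replicate 2 and 0.136 without DU145KO+vector replicate 2. TTLL11, a polyglutamylase of tubulin, stood at 3.18, 3.35 and 3.30 CPM against 1.74 to 2.61 CPM (log2 fold change 0.55 ± 0.16, adjusted p = 0.0474). NKILA, a long noncoding RNA that restrains NF-kB, stood at 2.63, 2.90 and 3.09 CPM (log2 fold change 0.61 ± 0.18, adjusted p = 0.0485). Both calls were lost in most of the alternatives, with adjusted p-values up to 0.259 for TTLL11 and 0.408 for NKILA. LOC104968399, which overlaps MYL12A and MYL12B on the opposite strand over 18.7% of its exon bases, was lower, at 1.59, 0.900 and 1.51 CPM against 2.01 to 5.49 CPM (log2 fold change −1.37 ± 0.23, adjusted p = 0.00267), and without DU145KO+α2 replicate 2 its adjusted p was 0.0713. LOC100128494 (log2 fold change −1.04 ± 0.19, adjusted p = 0.00358) had an adjusted p of 0.0903 without that sample. MIF-AS1 (log2 fold change −0.80 ± 0.20, adjusted p = 0.0260), which overlaps MIF over 46.5% of its exon bases, lost its call without DU145KO+α2 replicate 2 (adjusted p = 0.187) or DU145KO+vector replicate 2 (adjusted p = 0.131).

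SYVN1, RPS24 and UQCRB, which were more abundant than these, kept their calls at number 2 when any 1 sample was left out. Other genes of the lists did not: TXN, the gene of thioredoxin, lost its call without DU145KO+α2 replicate 2 (adjusted p = 0.137) or DU145KO+vector replicate 2 (adjusted p = 0.159), and NOP58, EPHX1, EDEM1, FDPS and ABCG1 lost theirs without at least 1 of the number 2 samples (adjusted p between 0.0545 and 0.174). SYVN1, the ubiquitin ligase of endoplasmic reticulum associated degradation, was counted at 65.9, 65.0 and 58.9 CPM at number 2 and at 46.2 to 58.2 CPM in the other 9 samples, with no overlap (log2 fold change 0.32 ± 0.05, adjusted p = 0.00226). RPS24, a protein of the small ribosomal subunit, was lower, at 731, 659 and 716 CPM against 836 to 1049 CPM (log2 fold change −0.40 ± 0.06, adjusted p = 0.00134). UQCRB, a subunit of respiratory complex III, was counted at 174, 147 and 164 CPM against 182 to 222 CPM (log2 fold change −0.34 ± 0.05, adjusted p = 0.00164). In both genes every number 2 sample was below the other 9. SYVN1 lost its call without the DU145KO+α2 line (adjusted p = 0.0504). Without the DU145KO+vector line the adjusted p was 0.0587 for SYVN1, 0.0658 for RPS24 and 0.105 for UQCRB.

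Genes of the amino acid response were raised at number 3. Of 34 genes known as targets of ATF4, 24 were higher and none lower at number 3 (median log2 fold change 0.55), 10 were lower and 1 higher at number 4 (median −0.41), and 8 were lower and 2 higher at number 1 (median −0.28). Among all genes 8.20% were higher at number 3, 6.46% lower and 7.38% higher at number 4, and 12% lower and 11.0% higher at number 1. SLC7A1, a transporter of arginine and lysine, was counted at 119, 110.2 and 112 CPM at number 1, 138, 138 and 131 CPM at number 2, 208, 154 and 149 CPM at number 3 and 101, 107 and 89.5 CPM at number 4 (log2 fold change 0.55 ± 0.06, adjusted p = 3.84e-05). All 3 number 3 samples were above the other 9, and the DU145KO sample was the highest. ASNS, asparagine synthetase and named after its values were seen, was counted at 77.3, 78.9 and 82.9 CPM, 129.5, 101 and 133 CPM, 255, 121 and 158 CPM and 66.7, 69.9 and 73.1 CPM at numbers 1, 2, 3 and 4 (log2 fold change 0.98 ± 0.17, adjusted p = 0.0147). Number 3 was the highest within each line, and DU145KO+α2 replicate 3 overlapped the number 2 samples of the other lines. TGATGNAAT, a form of the amino acid response element, was in 0 of the 29 promoters of this list that had a sequence. This form was in 0.916% of all promoters. Other forms of the element, and sequence outside the promoter bases searched, were not tested. The 0 thus does not show that these genes lack the element.

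SESN2, a sestrin that senses leucine, was counted at 42.2, 29.3 and 40.5 CPM at number 3 and at 18.9 to 30.1 CPM elsewhere (log2 fold change 0.65 ± 0.09, adjusted p = 0.000151). CARS, the cysteine tRNA synthetase, stood at 101, 75.3 and 79.0 CPM against 55.2 to 79.2 CPM (log2 fold change 0.42 ± 0.06, adjusted p = 0.000252), and JDP2, a repressor of AP-1, at 41.5, 24.6 and 38.7 CPM against 18.1 to 33.8 CPM (log2 fold change 0.57 ± 0.08, adjusted p = 0.000236). The number 3 sample was the highest of its line in each of these 3 genes. The stress effectors among the genes named after their values were seen gave larger folds. DDIT3, the factor CHOP, stood at 67.4, 33.3 and 43.7 CPM at number 3 and 17.9, 16.0 and 19.6 CPM at number 1 (log2 fold change 0.93 ± 0.17, adjusted p = 0.0109), with 31.6% of its exon bases overlapped by MARS1 and MBD6 on the opposite strand. STC2, a secreted stanniocalcin, stood at 135, 49.4 and 77.8 CPM against 26.6 to 64.0 CPM (log2 fold change 1.06 ± 0.18, adjusted p = 0.0102). CHAC1, which degrades glutathione, stood at 38.6, 17.4 and 25.6 CPM against 10.6 to 19.6 CPM (log2 fold change 1.01 ± 0.21, adjusted p = 0.0226), and TRIB3, a pseudokinase that restrains ATF4, at 192, 87.7 and 101 CPM against 39.6 to 69.4 CPM (log2 fold change 1.17 ± 0.26, adjusted p = 0.0312).

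DU145KO replicate 3 was the most extreme sample in this list, with a median deviation from its line mean of 0.70 against 0.31 in DU145KO+vector replicate 3 and 0.19 in DU145KO+α2 replicate 3. Without the DU145KO+vector line 9 of the 34 genes stayed called while the median was 0.60. The adjusted p was then 0.133 for ASNS, 0.0776 for DDIT3, 0.1005 for STC2, 0.144 for CHAC1 and 0.200 for TRIB3. CHAC1 also lost its call without DU145KO replicate 4 (adjusted p = 0.0568) or DU145KO+vector replicate 3 (adjusted p = 0.0512), and TRIB3 without 9 of the 12 samples (adjusted p between 0.0510 and 0.0738). NUPR1, a small stress protein of the same list, had 36.1, 16.2 and 16.5 CPM at number 3 and 6.44, 8.47 and 5.65 CPM at number 4 (log2 fold change −1.11 ± 0.24, adjusted p = 0.0187), and its call at number 4 was lost without DU145KO replicate 4 (adjusted p = 0.0697) or DU145KO+vector replicate 4 (adjusted p = 0.0940).

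Under the same limits, the genes with the largest rise at number 3 included enzymes of amino acid metabolism. DMGDH, which breaks down dimethylglycine, was counted at 6.76, 2.30 and 4.20 CPM at number 3, 1.85, 1.18 and 2.11 CPM at number 1 and 0.937, 0.955 and 1.58 CPM at number 4 (log2 fold change 1.43 ± 0.19, adjusted p = 5.29e-05). ARG2, mitochondrial arginase, stood at 81.9, 31.7 and 19.3 CPM at number 3 and 5.39, 11.7 and 6.13 CPM at number 4 (log2 fold change 1.58 ± 0.35, adjusted p = 0.0326), but 39.6% of its exon bases overlap VTI1B and the call was lost without 9 of the 12 samples (adjusted p between 0.0518 and 0.0924). COPG2IT1, a noncoding RNA, stood at 5.59, 5.14 and 3.68 CPM against 1.58 to 2.51 CPM (log2 fold change 1.26 ± 0.15, adjusted p = 1.82e-05). ABCA1, the exporter of cholesterol and a target of LXR, was also higher at number 3, at 161, 152 and 157 CPM against 95.2 to 142 CPM with no overlap (log2 fold change 0.37 ± 0.06, adjusted p = 0.000300).

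Glycolysis genes were lower at number 3. Of 15 tested, 10 were lower and none higher (median log2 fold change −0.26), and 7 were higher at number 4 (median 0.18). Among all genes 5.76% were lower at number 3 and 7.38% higher at number 4. GAPDH was counted at 1665, 1798 and 1464 CPM at number 1, 1439, 1866 and 1352 CPM at number 2, 1169, 1708 and 1171 CPM at number 3 and 1523, 2478 and 1613 CPM at number 4 (log2 fold change −0.33 ± 0.07, adjusted p = 0.00328). Number 3 was the lowest within each line, and the DU145KO+α2 line was above the other lines at each number. PGAM1, phosphoglycerate mutase, stood at 159, 259 and 196 CPM at number 3 and 231, 357 and 240.2 CPM at number 4 (log2 fold change −0.37 ± 0.06, adjusted p = 0.000338). GAPDH had an adjusted p of 0.0532 without the DU145KO+vector line. The 10 genes at number 3 became 3 without DU145KO replicate 3 or without the DU145KO+vector line. The 7 at number 4 became 0 without DU145KO+α2 replicate 4 and 3 without DU145KO+vector replicate 4.

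Of the 18 immediate early genes, 6 were lower and 2 higher at number 3 (median −0.31), against 5.76% and 8.20% of all genes. The 6 became 2 without DU145KO replicate 3. FOS was among the lower ones (−1.35, adjusted p = 0.0166), and lost this call without DU145KO replicate 3 (adjusted p = 0.0899) or DU145KO+vector replicate 3 (adjusted p = 0.0613). CLDN2, a claudin of leaky tight junctions, was counted at 1.17, 1.42 and 1.73 CPM against 1.93 to 6.97 CPM (log2 fold change −1.28 ± 0.26, adjusted p = 0.00379), and without DU145KO replicate 3 its adjusted p was 0.0640. CA12, a carbonic anhydrase induced by low oxygen, stood at 1.60, 1.004 and 0.633 CPM at number 3 and 3.51, 1.55 and 2.77 CPM at number 1 (log2 fold change −1.22 ± 0.24, adjusted p = 0.00189). XBP1, the transcription factor of the unfolded protein response, stood at 147, 172 and 116 CPM at number 3 and 234, 248 and 166 CPM at number 1 (log2 fold change −0.48 ± 0.07, adjusted p = 0.000107), and was the lowest within each line at number 3. HIST1H2BK, a histone H2B gene, stood at 158, 163 and 183 CPM against 188 to 225 CPM (log2 fold change −0.30 ± 0.05, adjusted p = 0.000518).

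Cell division genes were raised at number 4. All 31 mitosis and G2/M genes tested were higher at number 4, with a median log2 fold change of 0.99, and 15 of them were lower at number 3 (median −0.54). Of 36 genes of DNA replication and S phase, 30 were higher at number 4 and none lower (median 0.48), and 8 were lower at number 3 (median −0.35). Among all genes 7.38% were higher at number 4 and 5.76% lower at number 3. In RNA from whole spheroids, more dividing cells and more of these mRNAs in each dividing cell cannot be told apart.

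KIF2C, a kinesin that depolymerizes microtubules at centromeres, was counted at 8.80, 9.38 and 9.86 CPM at number 1, 8.06, 11.2 and 10.6 CPM at number 2, 5.96, 5.43 and 11.0 CPM at number 3 and 16.3, 19.99 and 23.8 CPM at number 4 (log2 fold change 1.17 ± 0.11, adjusted p = 8.6e-06). The 3 number 4 samples were above all others, and DU145KO and DU145KO+α2 were at their lowest at number 3 while DU145KO+vector was not. NUSAP1, a spindle protein, was counted at 105, 108 and 124 CPM at number 4 and at 52.1 to 78.5 CPM elsewhere (log2 fold change 0.71 ± 0.06, adjusted p = 7.61e-07). TPX2, which activates Aurora A on the spindle, stood at 88.3, 89.4 and 128 CPM against 39.8 to 69.4 CPM (log2 fold change 0.93 ± 0.08, adjusted p = 1.69e-05), and CDCA8, a subunit of the chromosomal passenger complex, at 16.9, 15.0 and 20.8 CPM against 5.29 to 11.5 CPM (log2 fold change 1.08 ± 0.11, adjusted p = 1.22e-05). GTSE1, a microtubule binding protein of G2, stood at 10.9, 8.72 and 11.1 CPM against 2.09 to 5.87 CPM (log2 fold change 1.46 ± 0.23, adjusted p = 0.00258). In each of these 4 genes the number 4 samples did not overlap the other 9.

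The markers of proliferation in common use, named after their values were seen, did the same with a wider spread. MKI67, the gene of Ki-67, was counted at 53.7, 41.7 and 56.1 CPM at number 1, 66.2, 82.3 and 61.8 CPM at number 2, 36.4, 46.2 and 83.8 CPM at number 3 and 125, 115 and 172 CPM at number 4 (log2 fold change 1.23 ± 0.21, adjusted p = 0.0134). CDC20, the activator of the anaphase promoting complex, stood at 33.4, 41.8 and 55.2 CPM against 13.1 to 28.9 CPM (log2 fold change 1.17 ± 0.12, adjusted p = 0.000176). CCNB1, cyclin B1, stood at 36.7, 33.5 and 47.5 CPM against 10.5 to 24.5 CPM (log2 fold change 1.002 ± 0.17, adjusted p = 0.00952). In these 3 genes the number 4 samples were above all others, but MKI67 lost its call without DU145KO replicate 4 (adjusted p = 0.0945) or DU145KO+vector replicate 4 (adjusted p = 0.0803), as did CCNB1 (0.0874 and 0.0558). BIRC5, the gene of survivin (1.28), lost its call without DU145KO replicate 4 (adjusted p = 0.0721).

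Among the replication genes, PCNA, the sliding clamp, was counted at 98.8, 83.4 and 107 CPM at number 1, 73.2, 75.9 and 82.3 CPM at number 2, 68.7, 71.2 and 90.5 CPM at number 3 and 118, 91.4 and 115 CPM at number 4 (log2 fold change 0.38 ± 0.06, adjusted p = 0.000486). MCM6, a subunit of the replicative helicase, stood at 125, 104 and 134 CPM against 70.8 to 112 CPM (log2 fold change 0.42 ± 0.06, adjusted p = 0.000315). FEN1, the flap endonuclease, stood at 83.1, 60.7 and 87.2 CPM against 42.0 to 69.7 CPM (log2 fold change 0.49 ± 0.07, adjusted p = 0.000343), and POLA1, the catalytic subunit of polymerase α, at 23.4, 17.4 and 22.8 CPM against 12.2 to 18.2 CPM (log2 fold change 0.41 ± 0.08, adjusted p = 0.00134). In these 4 genes number 4 was the highest within each line, with overlap between lines. MCM10, a replication gene of the same list that was named after its values were seen, had the larger fold (14.2, 12.1 and 19.1 CPM against 3.26 to 9.72 CPM, log2 fold change 1.27 ± 0.19, adjusted p = 0.00231).

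The number of cell division genes called depended on single samples. For the mitosis list at number 4, 18 of 31 genes stayed called without DU145KO replicate 4 (median 0.92) and 20 without the DU145KO line. For the replication list, 5 of 36 stayed called without DU145KO replicate 4 (median 0.36), 12 without DU145KO+vector replicate 4 (median 0.51) and 9 without the DU145KO line. The lower mitosis calls at number 3 went from 15 (median −0.54) to 6 without DU145KO replicate 3 (median −0.34), to 7 without DU145KO+α2 replicate 3 (median −0.46) and to 9 without DU145KO+vector replicate 4 (median −0.53). They rose to 30 (median −0.82) without DU145KO+vector replicate 3, the number 3 sample in which mitosis genes lay closest to their line mean.

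The promoters of the cell division genes are shown because all 31 mitosis genes and 30 of the 36 replication genes were higher at number 4. TTTGAA is a form of the CHR element of mitosis genes and TTTCCCGC a form of the E2F site of replication genes. Both were searched on both strands in the 250 bases before the start site (RefSeq, GRCh38.p14). TTTGAA was in 13 of the 25 mitosis promoters with a sequence (52.0%), in 1 of 31 replication promoters (3.23%) and in 13.6% of 27305 promoters. TTTCCCGC was in 8 of 31 replication promoters (25.8%), in 1 of 25 mitosis promoters (4.0%) and in 1.42% of all. A match is a description of the sequence and not of a bound factor. Windows of 20 bases on each side of the match are given 5′ to 3′ on the strand of the gene, cut where the promoter ends. The capitals mark 1 match in each window (that of MKI67 holds a second TTTGAA, in lower case), which reads GCGGGAAA where TTTCCCGC lies on the other strand.
PLK1 (chr16:23678840-23678885, plus strand): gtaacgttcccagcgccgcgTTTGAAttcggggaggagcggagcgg
CDCA8 (chr1:37692473-37692515, plus strand): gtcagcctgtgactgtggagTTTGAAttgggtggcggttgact
CCNB2 (chr15:59105097-59105142, plus strand): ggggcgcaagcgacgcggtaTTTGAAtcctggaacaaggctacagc
MKI67 (chr10:128126445-128126490, minus strand): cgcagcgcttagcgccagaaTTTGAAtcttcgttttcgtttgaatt
PCNA (chr20:5126654-5126701, minus strand): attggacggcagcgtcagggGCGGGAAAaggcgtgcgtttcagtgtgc
GINS2 (chr16:85688958-85689005, minus strand): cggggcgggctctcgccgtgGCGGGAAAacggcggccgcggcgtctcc
CDT1 (chr16:88803734-88803781, plus strand): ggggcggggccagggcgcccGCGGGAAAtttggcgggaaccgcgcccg

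Beside the cell cycle, TPPP3, a tubulin polymerization promoting protein, was higher at number 4, at 17.5, 17.1 and 11.8 CPM against 12.5, 6.21 and 8.98 CPM at number 1 and 2.37 to 5.25 CPM at numbers 2 and 3 (log2 fold change 1.55 ± 0.20, adjusted p = 0.000908). CDKN2C, the inhibitor p18 of CDK4 and CDK6, stood at 40.5, 46.7 and 53.03 CPM against 22.0 to 36.6 CPM (log2 fold change 0.60 ± 0.07, adjusted p = 1.26e-05). HIST1H4H, a histone H4 gene named after its values were seen, had a log2 fold change of 0.40 (adjusted p = 0.0160), lost without DU145KO replicate 4 (adjusted p = 0.176). Of 21 replication-dependent histone genes tested, 3 were higher at number 4 and 5 lower at number 3, against 7.38% and 5.76% of all genes. CCL20, a chemokine, stood at 3.63, 2.04 and 3.37 CPM at number 4 (log2 fold change 1.33 ± 0.26, adjusted p = 0.00296) and lost its call without DU145KO replicate 4 (adjusted p = 0.0585).

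Lower at number 4 were the receptor tyrosine kinase AXL, at 271, 242 and 274 CPM against 279.8 to 392 CPM (log2 fold change −0.32 ± 0.06, adjusted p = 0.000702), and SRXN1, sulfiredoxin, at 392, 416 and 413 CPM against 438 to 564 CPM (log2 fold change −0.30 ± 0.05, adjusted p = 0.000838). Both were below the other 9 samples. CD68, a lysosomal protein and the one blood cell marker at a high level in these cells, stood at 47.8, 55.2 and 53.6 CPM against 64.9 to 81.7 CPM (log2 fold change −0.48 ± 0.06, adjusted p = 2.88e-05, named after its values were seen), while MS4A1, HBA1 and HBB of the same marker list had no count. A2M, α2-macroglobulin, was the lowest at number 4 within each line, at 3.98, 0.955 and 0.0689 CPM (log2 fold change −1.38 ± 0.23, adjusted p = 0.000542), with 73.6% of its variation due to the line. The DU145KO+vector value of A2M at number 4, 0.0689 CPM, is below the level of 3 counts (0.210 CPM in that sample), so this fold depends on the prior count.

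Hypoxia genes did not move together with the number. Of 28 tested, 14 (50%) varied with the number, against 35.7% of all genes, and the calls went both ways. At number 1, 3 were higher and 5 lower, at number 2 1 was lower, at number 3 3 were higher and 4 lower, and at number 4 4 were higher and 2 lower. The medians lay between −0.08 and 0.05, and the line took a median of 57.9% of their variation against 23.4% for the number. VEGFA, the angiogenic factor, was higher at number 3, at 1196, 1388 and 968 CPM, and stood at 775, 1103 and 732 CPM at number 4 (log2 fold change 0.35 ± 0.06, adjusted p = 0.000622). MXI1, an antagonist of MYC, was lower at number 4 (log2 fold change −0.33 ± 0.06, adjusted p = 0.00160). CA12 was lower at number 3 while VEGFA was higher, and NDUFA4L2, a mitochondrial protein, stood at 3.20, 1.06 and 1.96 CPM at number 3 (log2 fold change 1.08 ± 0.24, adjusted p = 0.00478), lost without DU145KO replicate 3 (adjusted p = 0.207). The HIF core motif ACGTG was in 15 of 26 of these promoters (57.7%), against 18.7% of all.

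Of 24 genes of cholesterol synthesis and uptake, 7 (29.2%) passed the F-test for the number, beside 35.7% of all genes. At number 4, 6 were higher and none lower (median 0.11, with 7.38% of all genes higher), and at number 2, 4 were lower and none higher (median −0.11, with 3.09% of all genes lower). By line the medians were −0.02, 0.23 and 0.13 at number 4 and 0.004, −0.21 and −0.12 at number 2. Neither shift was thus seen in the DU145KO medians. At number 3, 3 were lower, against 5.76% of all genes. At number 1, 3 were higher and 1 lower, against 11.0% and 12% of all genes. The sterol element TCACCCCAC was in 1 of 18 promoters of this list, that of SREBF2, and in 0.348% of all. SQLE, squalene epoxidase and named after its values were seen, had a log2 fold change of 0.40 at number 4 (adjusted p = 0.0155), lost without DU145KO+α2 replicate 4 (adjusted p = 0.106) or DU145KO+vector replicate 4 (adjusted p = 0.115). ACAT2 (0.29 at number 4, adjusted p = 0.00253) has 22.2% of its exon bases overlapped by other genes.

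Of 13 fatty acid synthesis genes, 5 (38.5%) varied with the number, beside 35.7% of all genes. ACACA, acetyl-CoA carboxylase, was lower at number 1 (log2 fold change −0.23 ± 0.05, adjusted p = 0.00164), but at −0.05 with GC content and length fitted (adjusted p = 0.481). LPIN1, a phosphatidate phosphatase, stood at 43.9, 44.9 and 48.1 CPM at number 1 against 50.8 to 72.7 CPM (log2 fold change −0.36 ± 0.06, adjusted p = 0.000488). Of 8 LXR targets, 4 were higher at number 1 and 4 lower at number 4 (medians 0.23 and −0.17), against 11.0% and 6.46% of all genes. The 4 at number 4 became 0 without DU145KO+α2 replicate 4. LPCAT3 was among those higher at number 1 (0.40, adjusted p = 5.89e-05), but 66.0% of its exon bases overlap EMG1. NR1H2, the gene of LXRβ, stood at 103, 105 and 105 CPM at number 1 against 77.5 to 98.5 CPM (log2 fold change 0.27 ± 0.05, adjusted p = 0.00143).

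Among the other stress lists, 11 of 23 genes of the unfolded protein response (47.8%) varied with the number, beside 35.7% of all genes, with medians between −0.07 and 0.08. Their core motif CCACG was in 17 of 20 promoters (85%) and in 33.3% of all. Of 23 antioxidant genes, 6 were higher at number 1 and 4 lower at number 4 (medians 0.11 and −0.08), against 11.0% and 6.46% of all genes. Of 14 starvation genes, 5 were lower and 1 higher at number 4 (median −0.15), against 6.46% and 7.38% of all genes. The 5 became 1 without DU145KO replicate 4 and 2 without DU145KO+vector replicate 4. KLF9, a Krüppel-like factor of that list, stood at 58.3, 77.3 and 51.0 CPM at number 4 (log2 fold change −0.32 ± 0.07, adjusted p = 0.00875), lost without DU145KO replicate 4 (adjusted p = 0.0935) or DU145KO+α2 replicate 4 (adjusted p = 0.0517). Of 13 YAP and TGF-β targets, 4 were higher at number 1, against 11.0% of all genes. Among the 4 was CYR61, a matricellular protein, at 60.7, 44.3 and 53.1 CPM (log2 fold change 0.53 ± 0.08, adjusted p = 0.000256). Of 6 metallothioneins tested, 3 (50%) varied with the number, and of 13 G1 cyclins and inhibitors 8 (61.5%) did, beside the same 35.7%.

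ITGA2, the edited gene, was counted at 21.2, 301 and 18.8 CPM at number 1, 20.2, 328 and 18.2 CPM at number 2, 25.8, 332 and 20.2 CPM at number 3 and 15.7, 259 and 13.0 CPM at number 4. The line took 98.7% of its variation and the number 1.19%. Number 4 was nonetheless the lowest within each line (log2 fold change −0.42 ± 0.06, adjusted p = 0.000201), by a factor far smaller than the difference between DU145KO+α2 and the α2 negative lines. ITGA2 lies at chr5:52989352-53094779 in GRCh38.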

How the data were processed

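RNA from 3 lines with 4 replicates each was sequenced from spheroids. The authors called bases with bcl2fastq 1.8.4, aligned reads to hg38 with TopHat2 2.1.0 and counted unique reads per gene with Subread 1.5.0. The deposited read counts per gene were analysed as deposited. The authors also deposited RPKM values after TMM scaling, which were not tested here. Strand use in counting is not given in the sources used here, so genes that overlap on opposite strands are uncertain.

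Genes with low counts (filterByExpr, minimum 10) were left out. Counts were scaled by TMM and tested with edgeR 4.0.16 (robust quasi-likelihood, R 4.3.3) in a model of line and replicate number with 6 residual degrees of freedom. P-values were adjusted by Benjamini-Hochberg over all genes tested, and 0.05 was the threshold. Each number was set against the mean of the other 3. Alternatives used limma 3.58.1 and DESeq2 1.42.0. On simulated data with 2-fold changes at 1 number in 200 of 14603 genes, the F-test recovered 96% of the changed genes. The changed genes were not drawn from those with the lowest counts, and no differences between lines were simulated. Recovery of smaller changes, or of changes in genes with lower counts, was not tested. Chi-square per degree of freedom between replicates was 6.98 to 23.7, so no pair was a duplicate.

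The number was used as a factor because its effect was the subject set beforehand. Samples of the same number correlated in every pair (r at least 0.135 after removal of line means). These correlations come from the same 12 samples and are not a separate ground for the factor. The labels give only the number and the study calls the replicates independent. P-values thus measure the spread that remains after line and number.

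Named were, for each number and direction, the 3 called genes with the largest fold change that lay outside the range of the other numbers in each line (average log2 CPM of at least 1), the 4 genes with the smallest F-test p in each list (1 where fewer than 3 members were called), and ITGA2. Genes said to be named after their values were seen were added later. Some genes of the lists are not reported here by name. The members and lists were chosen with earlier results of these data known. Promoter sequences are from RefSeq GRCh38.p14, and exon overlaps are from the GENCODE annotation. SDs are between samples, and standard errors of fold changes are from the quasi-likelihood fit. The level of 3 counts covers counting error only.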

Additional observations from a re-analysis of the deposited data

Results flagged for a closer look

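Within each line a named gene, or one of the sample measures, has 4 values. A sample was singled out when the gap to its nearest neighbor, divided by the range of the 4 values, was above the 95% critical value of Dixon's test. Of 453 such groups 46 met this, all of them groups of named genes, where chance gives about 1 in 20. The sample that stood apart carried number 1 in 27 groups, number 2 in 5, number 3 in 2 and number 4 in 12. The genes were named for their differences between numbers, so many of these samples had to stand apart.

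At number 1 the ratio for the highest value was for FOS 0.925 in DU145KO (219.8 CPM), 0.937 in DU145KO+α2 (132 CPM) and 0.944 in DU145KO+vector (169 CPM), for FOSB 0.842 in DU145KO+α2 (3.85 CPM), for EGR1 0.911 in DU145KO (470.4 CPM) and 0.872 in DU145KO+vector (309 CPM), for BTG2 0.857 in DU145KO+α2 (47.1 CPM). The ratio was for LPCAT3 0.874 in DU145KO (99.6 CPM), for PRDX1 0.869 in DU145KO+vector (667 CPM), for IER2 0.857 in DU145KO (137 CPM) and 0.841 in DU145KO+vector (126 CPM), for JUNB 0.893 in DU145KO (186 CPM). The ratio was for DUSP1 0.895 in DU145KO (46.3 CPM) and 0.968 in DU145KO+α2 (30.2 CPM), for ZFP36 0.882 in DU145KO (181 CPM) and 0.856 in DU145KO+vector (143 CPM), for IFIT3 0.898 in DU145KO+α2 (25.3 CPM), for HLA-DMA 0.915 in DU145KO (49.2 CPM). The ratio was for HLA-DRA 0.899 in DU145KO (23.4 CPM), for UQCRQ 0.854 in DU145KO+vector (91.4 CPM), for NDUFA4 0.885 in DU145KO+α2 (160.5 CPM), for HIST1H1C 0.837 in DU145KO+vector (197 CPM). The ratio was for SNORA48 0.928 in DU145KO (1.79 CPM) and 0.840 in DU145KO+α2 (2.17 CPM), for SOCS3 0.848 in DU145KO (57.1 CPM) and 0.907 in DU145KO+vector (50.3 CPM), for TNFSF10 0.832 in DU145KO+vector (101 CPM).

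At number 2 the ratio for the highest value was for ABCG1 0.908 in DU145KO+vector (14.4 CPM), for MT2A 0.838 in DU145KO+vector (102 CPM), for MYC 0.840 in DU145KO+vector (75.3 CPM). At number 2 the ratio for the lowest value was for LOC104968399 0.921 in DU145KO+α2 (0.900 CPM), for RPS24 0.872 in DU145KO (731 CPM).

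At number 3 the ratio for the highest value was for TRIB3 0.837 in DU145KO (192 CPM), for CHAC1 0.846 in DU145KO (38.6 CPM).

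At number 4 the ratio for the highest value was for TPPP3 0.855 in DU145KO+α2 (17.1 CPM), for GTSE1 0.883 in DU145KO (10.9 CPM), for KIF2C 0.915 in DU145KO+vector (23.8 CPM), for CDCA8 0.881 in DU145KO+vector (20.8 CPM). The ratio was for TPX2 0.869 in DU145KO+vector (128 CPM), for ODC1 0.909 in DU145KO+α2 (124 CPM), for FADS2 0.902 in DU145KO+α2 (303 CPM), for CCNB1 0.963 in DU145KO+vector (47.5 CPM). The ratio was for CDC20 0.840 in DU145KO (33.4 CPM) and 0.847 in DU145KO+vector (55.2 CPM), for BIRC5 0.899 in DU145KO+vector (53.03 CPM). At number 4 the ratio for the lowest value was for KLF9 0.836 in DU145KO (58.3 CPM).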

How the results depend on the processing

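The counts of genes that varied with the number and at each number stayed within 1.5 times under DESeq2's size factors, library size alone, voom with limma, DESeq2, either filter on low counts, a dispersion that was not robust and a fit of GC content and length. With no replicate block the line count was 1948. At an adjusted p below 0.01 the number count was 2706, and with a range above 1.5-fold it was 1218. Leaving out 1 sample gave 3734 to 5480 genes for the number, 4065 to 4849 for the line, and 1753 to 3500, 93 to 1043, 756 to 2183 and 672 to 2255 for numbers 1, 2, 3 and 4. The lowest of these were without DU145KO+vector replicate 1, DU145KO+vector replicate 2, DU145KO replicate 3 and DU145KO replicate 4. Leaving out 1 number gave 2208 to 4908, the lowest without number 1. Without the DU145KO line there were 1045 genes at number 3 and 1030 at number 4. Without DU145KO+α2 there were 2185 for the line, 137 at number 2 and 1263 at number 3. Without DU145KO+vector there were 2078 for the number, 2615 for the line, and 1243, 27, 1117 and 825 at numbers 1 to 4. These fits have fewer samples, and a lone sample is assumed to vary like the others.

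Among the sample measures, the exact permutation p for small noncoding RNA ranged from 0.0347 (without DU145KO+vector replicate 4) to 0.507 when 1 sample was left out, and the length slope, histone share and top 10 share kept their side of the threshold. Of 144 genes named, 79 kept their call under every alternative and 63 lost it under at least 1, mostly when a sample or a line was left out. No direction was reversed. Genes near the level of 3 counts (0.150 to 0.215 CPM) are limited by depth.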
